A study of Mus musculus with 6 samples.

Results

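The 44 genes described here mark macrophages, monocytes, neutrophils and dendritic cells, the phagocytes and antigen-presenting cells of the myeloid lineage. They were taken as a list of gene symbols, not by their values, and each of the 44 matched 1 Ensembl identifier among the 56940 genes of the count tables. RNA was sequenced from mouse lens capsules, the basement membrane bag of the lens with its attached lens epithelial cells, after the fiber cell mass had been removed through an anterior incision as a model of cataract surgery. Capsules were collected at once (0 h) or 72 h later, with 3 libraries per time and 5 pooled capsules per library. The question was how these genes differed between 0 h and 72 h, and from library to library.

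All mice carried the strain label C57BL/6 and the genotype label wildtype, in both groups, and both groups had undergone the surgery, so no library came from an unoperated eye. The sample descriptions of all 6 libraries also hold the string RUNX_Cre_N; no source used here says what it stands for, or gives the age or sex of the mice. In each mouse one eye was operated 72 h before the other and both capsules were then taken, so the groups may share animals; which animals entered which pool is not given. Error bars and p-values therefore describe the spread between pools. A whole capsule holds every cell attached to it. In such bulk RNA, more cells of a type and more RNA per cell cannot be told apart, and where the cells came from was not measured.

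Myeloid cells develop in the bone marrow under the transcription factor PU.1, with C/EBP factors directing the granulocyte branch. After injury, neutrophils leave the blood along CXCR2 ligands and monocytes along CCR2 ligands, attach through beta-2 integrins, and in the tissue engulf debris, read antibody and microbial sugars through receptors coupled to ITAM adaptors, make reactive oxygen with the phagocyte NADPH oxidase and present peptides on MHC class II. The lens has no blood vessels of its own, and its capsule is bathed by aqueous humour on the anterior side and faces the vitreous behind.

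Promoters of 4 members are printed because these genes were called higher at 72 h and hold letters of a PU.1 or C/EBP site. They are the 4 members of smallest p among those with a match. RefSeq windows on GRCm38.p6, from 250 bases before to 50 after the transcript start, were found for 35 of the 44 members (40 windows; 9 members had none). The PU.1 form GAGGAAGT, searched on both strands, lay in 3 of 40 member windows (7.5%) and in 3.202% of all 32851 windows. The C/EBP form TTNNGCAA lay in 6 of 40 (15%), for 5 genes, and in 10.8% of all windows. The forms cannot match the same 8 bases on either strand. A match describes letters only. Each window reads 5′ to 3′ on the gene's strand, with the matched letters in capitals.
Fcgr3 (chr1:171059354-171059653, minus strand; C/EBP form starting 28 bases before the start): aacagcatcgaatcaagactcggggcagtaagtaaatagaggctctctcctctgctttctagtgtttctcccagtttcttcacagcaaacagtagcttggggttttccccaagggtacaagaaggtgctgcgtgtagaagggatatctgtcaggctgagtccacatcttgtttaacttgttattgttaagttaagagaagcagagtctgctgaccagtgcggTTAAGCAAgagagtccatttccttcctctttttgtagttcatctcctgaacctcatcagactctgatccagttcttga
Ctss (chr3:95526536-95526835, plus strand; PU.1 form read on the other strand, across the start): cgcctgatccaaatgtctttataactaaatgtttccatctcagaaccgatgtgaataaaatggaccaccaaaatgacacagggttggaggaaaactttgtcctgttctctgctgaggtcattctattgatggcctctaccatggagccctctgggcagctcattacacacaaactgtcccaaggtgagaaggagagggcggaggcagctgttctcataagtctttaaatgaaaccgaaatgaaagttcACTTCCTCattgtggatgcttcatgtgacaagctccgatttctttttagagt
Clec4e (chr6:123289822-123290121, minus strand; C/EBP form starting 66 bases before the start): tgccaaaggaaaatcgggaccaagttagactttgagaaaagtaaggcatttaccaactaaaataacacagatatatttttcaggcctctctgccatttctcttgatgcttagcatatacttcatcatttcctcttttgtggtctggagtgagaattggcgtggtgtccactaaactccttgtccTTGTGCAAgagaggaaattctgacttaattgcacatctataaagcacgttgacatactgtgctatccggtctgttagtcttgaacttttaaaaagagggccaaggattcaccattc
Cd68 (chr11:69666121-69666420, minus strand; C/EBP form read on the other strand, from 43 bases before the start): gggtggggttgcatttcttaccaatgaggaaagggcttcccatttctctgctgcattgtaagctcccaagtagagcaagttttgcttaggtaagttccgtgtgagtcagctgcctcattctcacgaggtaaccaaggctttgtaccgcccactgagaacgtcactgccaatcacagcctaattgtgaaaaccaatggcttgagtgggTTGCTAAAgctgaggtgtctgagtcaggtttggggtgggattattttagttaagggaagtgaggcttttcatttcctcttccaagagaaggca
The other matches were the PU.1 form for C1qc and S100a8 and the C/EBP form for S100a9 and Trem2. These coordinates belong to GRCm38.p6, while the counts were made on GRCm39.

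Gene counts ranged from 11338820 to 12432688 per library at 0 h and from 8453450 to 8945397 at 72 h. Lens epithelium markers, such as the crystallin gene Cryaa and the transcription factor gene Foxe3, were present in every library, as the label of lens epithelial cells calls for. They summed to between 78715 and 83850 CPM, the counts scaled to the library size, at 0 h and between 10239 and 18774 CPM at 72 h, and 7 of 8 were called lower. Other tissue was present too. Photoreceptor markers summed to 631 to 1541 CPM at 0 h and 51.1 to 143 CPM at 72 h, with 5 of 6 called lower, among them Sag (arrestin). Surface epithelium keratins reached 1752 CPM in 72 h replicate 3, against 3.36 and 33.7 CPM in the other 72 h libraries and at most 22.8 CPM at 0 h. Hemoglobin beta (Hbb-bs), from red cells, had 129 counts in 0 h replicate 3 and 0 to 29 in the other libraries. The part of these tissues in the results below was not tested.

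Myeloid cell genes were higher at 72 h across nearly every role. Their counts made up 0.0160% to 0.0192% of gene counts at 0 h and 0.118%, 0.123% and 0.0778% in 72 h replicates 1, 2 and 3. In CPM they summed to 157, 168 and 188 at 0 h and to 1153, 1226 and 851 at 72 h, a ratio of mean levels of 6.30. Every 72 h library lay above every 0 h library. Of the 44 genes, the quasi-likelihood test of edgeR, with p adjusted by Benjamini-Hochberg over 15407 genes, called 35 higher and 0 lower, left 4 not called (Cd163, Lgals3, C1qb and C1qc), and did not test 5 with too few counts (Ms4a7, Trem2, S100a8, S100a9 and Clec4d). Among all tested genes 21.0% were called higher and 17.5% lower, and no member was lower at an unadjusted p under 0.05 either (0 members). DESeq2 also called 0 members lower.

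The filter on low counts shaped which members were tested. The 16 members whose 0 h counts alone passed the filter could move either way; 12 of them were called higher (18.4% of such genes overall) and 0 lower, with a median log2 change of 2.00 beside −0.10 over such genes. The other 23 of the 39 passed only with their 72 h counts, so a gene of that kind is nearly always higher at 72 h when it is called. They were all 5 Fc receptor and adaptor genes, all 3 beta-2 integrins, the general leukocyte genes other than Ptprc, the 4 tested neutrophil and inflammatory receptor genes, Adgre1, Cd68, Ccr2, Cd14, C3ar1, C5ar1 and Ncf1. All 23 were called higher, with a median of 4.62, where among all 1817 genes of that kind 40.3% were called higher and 1 lower, with a median of 1.52. Over both kinds, all 35 calls were at least 2-fold, a size that 13.5% of tested genes reached upwards, and 20 were at least 10-fold. The tested members had a median log2 change of 3.35, also with genes of 0 counts at 0 h set to their lower bound, beside −0.02 over all tested genes. The values of the groups were separate, with 72 h above, for 35 of the 39 tested members, against 26.5% of tested genes. With no filter, 40 of 44 members were called higher, beside 12.3% of genes. Leaving out 72 h replicate 3, the library with the keratins, gave 39 of 42 tested members called higher, beside 3646 of 16621 genes. Leaving out any other library gave 33 to 37 members called higher, with 39 to 44 tested. Those fits called 2511 to 3155 genes higher, with 15974 to 16665 tested.

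**Figure D1:**
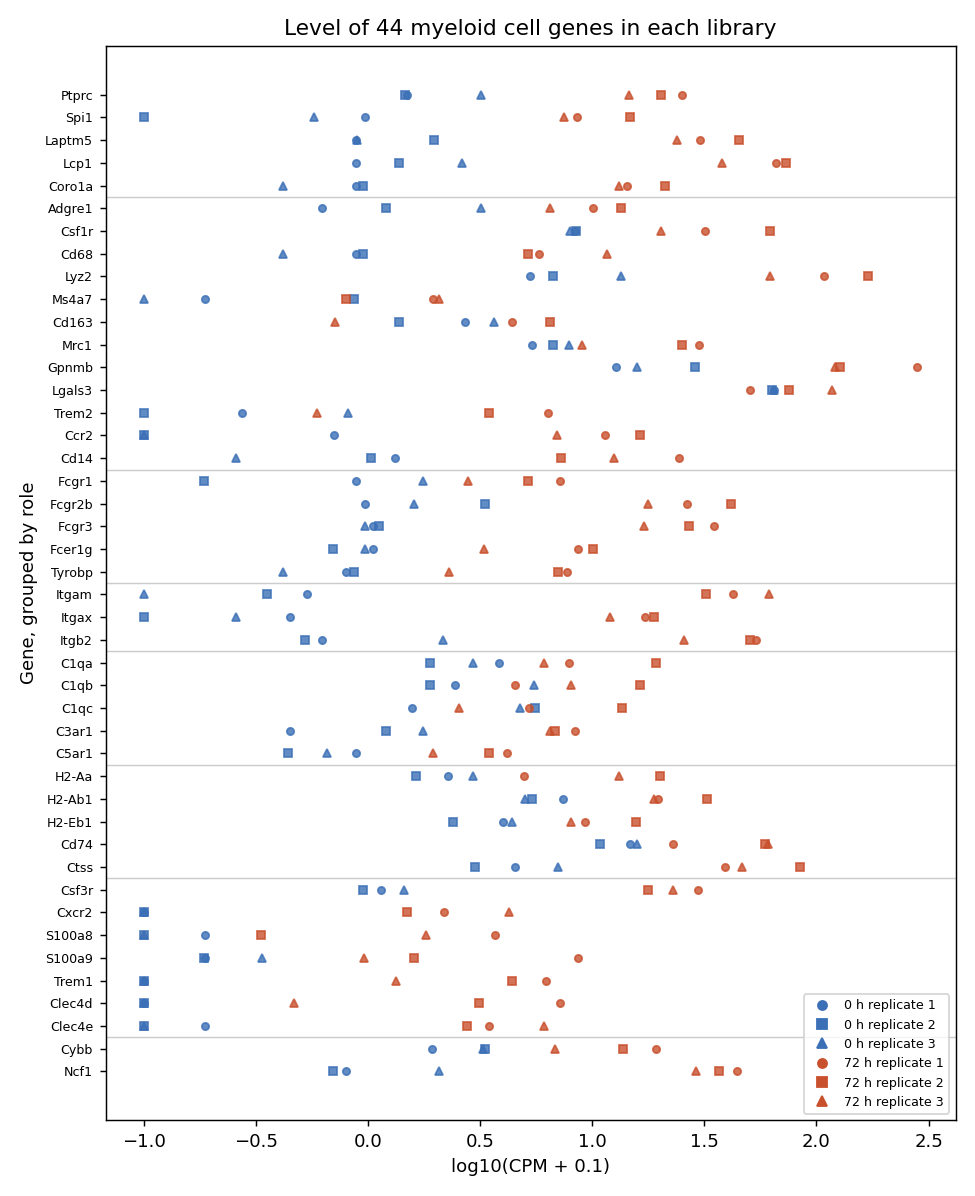
Level of each of the 44 genes in each of the 6 libraries, as log10 of CPM plus 0.1, with genes grouped by role (grey lines) and libraries marked by colour (time) and shape (replicate). Most 72 h points lie to the right of every 0 h point; Cd163, Lgals3, C1qb, C1qc, Ms4a7 and Trem2 overlap.

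**Figure D2:**
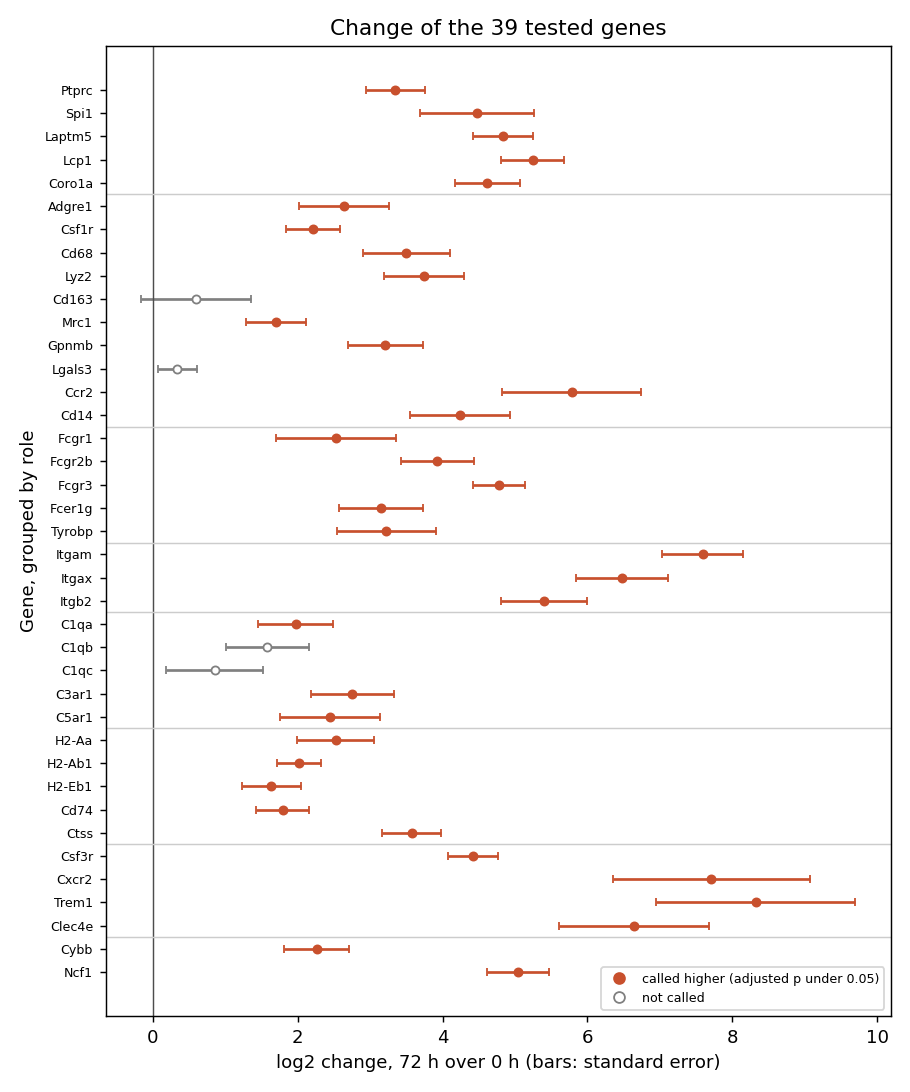
Log2 change from 0 h to 72 h of the 39 tested genes by edgeR, with standard errors as bars; filled points passed the adjusted threshold of 0.05 and open points did not. Fitted values of Cxcr2 and Trem1, with 0 counts at 0 h, depend on the prior count and are no measured fold.

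Genes that mark leukocytes in general rose together, and all 5 passed the test; Ptprc alone could have entered it through its 0 h counts. Per-library levels are given below in the order of replicates 1, 2 and 3, in CPM, and changes as log2 of 72 h over 0 h ± SE with the adjusted p. In each role, counts of calls stand beside 21.0% higher and 17.5% lower among all tested genes. Separate groups with 72 h above stand beside 26.5%. Ptprc, which encodes the pan-leukocyte phosphatase CD45, was at 1.38, 1.35 and 3.08 CPM at 0 h and 25.1, 20.2 and 14.4 CPM at 72 h (3.35 ± 0.41, adjusted p = 0.000161). Spi1, the gene of PU.1, was at 0.865, 0 and 0.473 CPM at 0 h and 8.45, 14.7 and 7.34 CPM at 72 h (4.48 ± 0.79, adjusted p = 0.00156). The 72 h libraries of both genes were all above those of 0 h, and replicate 3 was the lowest of the 72 h libraries. Laptm5, a lysosomal membrane protein of blood cells, was at 0.778, 1.86 and 0.789 CPM at 0 h and 30.1, 44.9 and 23.7 CPM at 72 h (4.84 ± 0.41, adjusted p = 1.6e-05). Lcp1, the actin bundler L-plastin, was at 0.778, 1.27 and 2.52 CPM at 0 h and 66.1, 72.7 and 37.7 CPM at 72 h (5.25 ± 0.44, adjusted p = 4.2e-05). Coro1a, the actin regulator coronin 1A, was at 0.778, 0.847 and 0.316 CPM at 0 h and 14.1, 21.02 and 13.1 CPM at 72 h (4.62 ± 0.45, adjusted p = 4.0e-05). For these 3 genes, too, the groups were separate, with replicate 2 highest and replicate 3 lowest at 72 h. The 5 genes summed to 4.58, 5.33 and 7.18 CPM at 0 h and 144, 174 and 96.2 CPM at 72 h, a ratio of 24.2. Without 0 h replicate 1, whose 10 counts were the most of the group, the change of Spi1 was 5.31.

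Among 12 macrophage and monocyte genes 8 rose, 2 did not pass the test and 2 were not tested. The pan-macrophage genes came first. Adgre1, which encodes the F4/80 antigen, was at 0.519, 1.10 and 3.08 CPM at 0 h and 9.96, 13.3 and 6.36 CPM at 72 h (2.64 ± 0.62, adjusted p = 0.00741; 3.58 without 0 h replicate 3). Csf1r, the receptor through which CSF1 keeps macrophages alive, was at 8.30, 8.38 and 7.81 CPM at 0 h and 31.8, 61.7 and 20.1 CPM at 72 h (2.21 ± 0.37, adjusted p = 0.00161). Cd68, a lysosomal glycoprotein of phagocytes, was at 0.778, 0.847 and 0.316 CPM at 0 h and 5.67, 5.08 and 11.5 CPM at 72 h (3.50 ± 0.59, adjusted p = 0.00122). The groups did not overlap for these genes, and the level of Csf1r was already even across the 0 h libraries. Lyz2, lysozyme of macrophages and neutrophils, was at 5.19, 6.60 and 13.3 CPM at 0 h and 108, 169 and 61.6 CPM at 72 h (3.75 ± 0.56, adjusted p = 0.00396), with replicate 2 highest at 72 h and replicate 3 lowest. Of the 50-base windows of Lyz2 transcripts 15.39% also occur in its paralog Lyz1, so that reads could be shared or dropped, but Lyz1 itself had 1 count in all libraries together.

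The recruitment and sensing receptors of monocytes were among the larger changes of this role. Ccr2, the receptor for CCL2, was at 0.605, 0 and 0 CPM at 0 h and 11.2, 16.3 and 6.85 CPM at 72 h (5.78 ± 0.96, adjusted p = 0.00138). All 7 of its 0 h counts lay in replicate 1, and without that library the fitted change was 9.83, which is set against 0 counts and depends on the prior count. Cd14, the lipopolysaccharide co-receptor, was at 1.21, 0.931 and 0.158 CPM at 0 h and 24.2, 7.16 and 12.4 CPM at 72 h (4.24 ± 0.69, adjusted p = 0.00101; 3.65 without 72 h replicate 1). Both genes were separate between groups, but they ranked the 72 h libraries differently, Ccr2 with replicate 2 and Cd14 with replicate 1 on top.

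Genes linked to repair and scavenging states gave a mixed picture. Mrc1, the mannose receptor CD206, was at 5.28, 6.60 and 7.73 CPM at 0 h and 29.9, 24.95 and 8.93 CPM at 72 h (1.70 ± 0.41, adjusted p = 0.00914), and 72 h replicate 3 lay only just above the 0 h libraries. Gpnmb, a lysosomal glycoprotein of lipid-laden macrophages that pigment cells also express, was at 12.6, 28.6 and 15.8 CPM at 0 h and 280.5, 127 and 121 CPM at 72 h (3.21 ± 0.52, adjusted p = 0.00657). Cd163, the hemoglobin-haptoglobin scavenger receptor of resident macrophages, was at 2.59, 1.27 and 3.55 CPM at 0 h and 4.28, 6.35 and 0.611 CPM at 72 h and missed the threshold (0.60 ± 0.76, adjusted p = 0.571). Its lowest value of all 6 libraries lay in 72 h replicate 3, and its highest in 72 h replicate 2. Lgals3, galectin 3, a lectin of macrophages and of epithelia, stood at 64.4, 63.2 and 64.8 CPM at 0 h and 50.6, 75.3 and 117.8 CPM at 72 h (0.34 ± 0.27, adjusted p = 0.365) and so gave no call. The 0 h libraries of Lgals3 agreed closely while 72 h replicates 1 and 3 lay on opposite sides of them; the change was 0.58 (adjusted p = 0.0373) without 72 h replicate 1 and −0.02 without 72 h replicate 3, the library with the keratins. Trem2, a lipid receptor of tissue macrophages, had 2, 0 and 9 counts at 0 h and 54, 29 and 4 at 72 h. Ms4a7, a tetraspan protein of macrophages, had 1, 9 and 0 counts at 0 h and 16, 6 and 16 at 72 h. Neither was tested, and in both the groups overlapped by 1 library. Melanocyte and pigment epithelium markers summed to 40.0 to 77.2 CPM at 0 h and 17.2 to 63.6 CPM at 72 h, with 0 of 6 called higher and 2 lower.

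Receptors for the Fc part of antibodies rose with the adaptors that carry their signal; all 5 passed the test, which each had entered only through its 72 h counts. Fcgr1, the high-affinity IgG receptor, was at 0.778, 0.0847 and 1.66 CPM at 0 h and 7.06, 5.08 and 2.69 CPM at 72 h (2.53 ± 0.83, adjusted p = 0.0346). Its call rested on single libraries: the adjusted p was 0.111 when replicate 1 of either group was left out, 0.0731 when 0 h replicate 2 was and 0.07 when 72 h replicate 2 was. The change of Fcgr1 was 3.48 when 0 h replicate 3 was left out. Fcgr2b, the inhibitory IgG receptor, was at 0.865, 3.22 and 1.499 CPM at 0 h and 26.3, 41.5 and 17.6 CPM at 72 h (3.93 ± 0.50, adjusted p = 0.000304; 4.56 without 0 h replicate 2). Fcgr3, the activating low-affinity receptor whose promoter is printed above, was at 0.951, 1.02 and 0.868 CPM at 0 h and 34.96, 26.8 and 16.9 CPM at 72 h (4.78 ± 0.36, adjusted p = 7.8e-06). The 0 h values of Fcgr3 lay within a narrow range below all 72 h values. Fcgr3 shares 12.79% of its 50-base windows with Fcgr2b, so part of the reads of this pair cannot be assigned to one gene with certainty. Fcer1g, the Fc receptor gamma chain, was at 0.951, 0.593 and 0.868 CPM at 0 h and 8.57, 9.93 and 3.18 CPM at 72 h (3.15 ± 0.58, adjusted p = 0.00196). Tyrobp, the adaptor DAP12 that pairs with TREM receptors, was at 0.692, 0.762 and 0.316 CPM at 0 h and 7.64, 6.93 and 2.20 CPM at 72 h (3.23 ± 0.68, adjusted p = 0.00413). Both adaptors were lowest in replicate 3 among the 72 h libraries, yet above every 0 h library there.

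Beta-2 integrins, the adhesion receptors by which leukocytes leave vessels and bind complement, had the largest ratio of summed levels among the 8 roles. They summed to 1.30, 0.677 and 2.21 CPM at 0 h and 113, 101 and 98.8 CPM at 72 h, a ratio of 74.8. Itgam, the alpha chain CD11b of monocytes, macrophages and neutrophils, was at 0.432, 0.254 and 0 CPM at 0 h and 42.5, 31.9 and 61.4 CPM at 72 h (7.59 ± 0.56, adjusted p = 1.4e-05; 8.37 without 0 h replicate 1 and 6.99 without 0 h replicate 3). Itgax, the alpha chain CD11c of dendritic cells and activated macrophages, was at 0.346, 0 and 0.158 CPM at 0 h and 17.02, 18.7 and 11.9 CPM at 72 h (6.47 ± 0.64, adjusted p = 4.0e-05; 7.39 without 0 h replicate 1). Itgb2, their shared beta chain CD18, was at 0.519, 0.423 and 2.05 CPM at 0 h and 53.4, 50.6 and 25.6 CPM at 72 h (5.40 ± 0.60, adjusted p = 0.000331; 6.48 without 0 h replicate 3). All 3 were nearly silent at 0 h, entered the test only through their 72 h counts and were separate between groups. Itgam was highest in 72 h replicate 3 while Itgb2 was lowest there, at 25.6 CPM against 53.4 and 50.6 CPM. Exons of Itgam overlap those of a predicted gene on the same strand in the annotation used for lengths, which leaves its reads less certain.

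Complement genes had the smallest ratio of summed levels among the roles, at 3.30. The C1q chains A, B and C, which macrophages secrete as the recognition part of the classical pathway, summed to 7.52, 8.97 and 12.9 CPM at 0 h and to 17.2, 48.6 and 16.4 CPM at 72 h. C1qa was at 3.72, 1.78 and 2.84 CPM at 0 h and 7.76, 19.1 and 5.99 CPM at 72 h (1.97 ± 0.51, adjusted p = 0.0126). Its adjusted p rose to 0.0628, 0.0516 and 0.0664 when 0 h replicate 2, 0 h replicate 3 and 72 h replicate 2, in that order, were left out, and the change was 1.30 in the last case. C1qb was at 2.34, 1.78 and 5.36 CPM at 0 h and 4.40, 16.2 and 7.95 CPM at 72 h and missed the threshold (1.58 ± 0.58, adjusted p = 0.0539); its adjusted p was 0.0355, 0.0276 and 0.036 when 0 h replicate 3, 72 h replicate 1 and 72 h replicate 3, in that order, were left out. The change of C1qb was 2.20 in the first of these cases and 0.95 when 72 h replicate 2 was left out. C1qc, at 1.47, 5.42 and 4.65 CPM at 0 h and 5.09, 13.4 and 2.45 CPM at 72 h, gave no call (0.86 ± 0.67, adjusted p = 0.349; −0.03 without 72 h replicate 2). All 3 chains were at least 2 times as high in 72 h replicate 2 as in replicates 1 and 3. C3ar1, the receptor for the complement fragment C3a, was at 0.346, 1.10 and 1.66 CPM at 0 h and 8.22, 6.70 and 6.36 CPM at 72 h (2.76 ± 0.58, adjusted p = 0.00407), and C5ar1, the receptor for C5a, at 0.778, 0.339 and 0.552 CPM at 0 h and 4.05, 3.35 and 1.83 CPM at 72 h (2.45 ± 0.69, adjusted p = 0.0189). Both receptors were separate between groups, and C3ar1 was the member that varied least among the 72 h libraries, with a coefficient of variation of 14.0%. The adjusted p of C5ar1 rose to 0.0855, 0.0764 and 0.0663 when 0 h replicate 2, 0 h replicate 3 and 72 h replicate 1, in that order, were left out.

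Antigen presentation by MHC class II rose for all 5 members, from a level that was already measurable at 0 h. Among all tested genes 21.0% were called higher. H2-Aa was at 2.16, 1.52 and 2.84 CPM at 0 h and 4.86, 19.9 and 13.1 CPM at 72 h (2.53 ± 0.53, adjusted p = 0.00403), and H2-Ab1 at 7.26, 5.25 and 4.89 CPM at 0 h and 19.6, 32.5 and 18.7 CPM at 72 h (2.02 ± 0.30, adjusted p = 0.000574); they encode the alpha and beta chains of I-A. H2-Eb1, the beta chain of I-E, was at 3.89, 2.29 and 4.26 CPM at 0 h and 9.15, 15.5 and 7.95 CPM at 72 h (1.64 ± 0.41, adjusted p = 0.0101; adjusted p = 0.0514 without 0 h replicate 2). For these 3 chains replicate 2 was the highest 72 h library. Cd74, the invariant chain that escorts class II, was at 14.6, 10.8 and 15.7 CPM at 0 h and 22.7, 58.8 and 60.9 CPM at 72 h (1.79 ± 0.37, adjusted p = 0.00586). Cathepsin S (Ctss), the protease that trims the invariant chain, was at 4.41, 2.88 and 6.94 CPM at 0 h and 39.01, 84.6 and 46.5 CPM at 72 h (3.57 ± 0.41, adjusted p = 0.000341). None of the 5 overlapped between groups, with 72 h above, which held for 26.5% of all tested genes. H2-Aa and Cd74 in 72 h replicate 1 lay closer to the 0 h libraries than to replicates 2 and 3. As a sum the role was at 32.3, 22.7 and 34.6 CPM at 0 h and 95.3, 211 and 147 CPM at 72 h, and replicate 1, the highest 72 h library for the neutrophil genes, was the lowest here.

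Neutrophil and inflammatory receptor genes were close to absent at 0 h, where all 7 together reached 1.27 ± 0.32 CPM (SD, n = 3), and 3 of them had 0 counts. At 72 h they summed to 60.2, 30.6 and 37.1 CPM. For each of the 7 genes every 72 h library lay above every 0 h library, which held for 26.5% of all tested genes. The 3 genes with 0 counts at 0 h are separate as soon as each 72 h library holds a count. The 4 tested genes entered the test only through their 72 h counts. Csf3r, the receptor for G-CSF, was at 1.04, 0.847 and 1.34 CPM at 0 h and 29.4, 17.6 and 22.7 CPM at 72 h (4.41 ± 0.34, adjusted p = 9.0e-06). Cxcr2, the receptor for CXCL1, CXCL2 and CXCL5, had 0 counts at 0 h and 2.08, 1.39 and 4.16 CPM at 72 h, a rise of at least 30.2-fold (adjusted p = 0.00294). Trem1, an amplifying receptor of neutrophils and monocytes, had 0 counts at 0 h and 6.14, 4.27 and 1.22 CPM at 72 h, a rise of at least 47.2-fold (adjusted p = 0.00209). These 2 genes ranked the 72 h libraries differently, with replicate 3 highest for Cxcr2 and lowest for Trem1. Bounds are set against 3 counts over the pooled 0 h libraries and, like the intervals here, cover counting error only. Clec4e, the glycolipid receptor Mincle whose promoter is printed above, had 1, 0 and 0 counts at 0 h and 29, 23 and 49 at 72 h, a ratio of 143 with a 95% counting interval of 25.1 to 5702 (adjusted p = 0.000722).

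The 3 untested genes of that role were uneven among the 72 h libraries. S100a8, a subunit of the neutrophil protein calprotectin, had 1, 0 and 0 counts at 0 h and 31, 2 and 14 at 72 h (ratio 66.5, 95% counting interval 11.4 to 2683). S100a9, its partner, had 1, 1 and 3 counts at 0 h and 74, 13 and 7 at 72 h. Clec4d, a C-type lectin encoded beside Clec4e, had 0 counts at 0 h and 61, 26 and 3 at 72 h, at least 42.5-fold higher. For these 3, replicate 1 was the highest 72 h library, and 5 of the 7 genes of the role were highest there; Cxcr2 and Clec4e were highest in replicate 3.

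The phagocyte NADPH oxidase rose in both its membrane and its cytosolic member. Cybb, the catalytic subunit gp91phox, was at 1.82, 3.22 and 3.16 CPM at 0 h and 19.1, 13.6 and 6.73 CPM at 72 h (2.26 ± 0.45, adjusted p = 0.00309). Ncf1, the organiser p47phox, was at 0.692, 0.593 and 1.97 CPM at 0 h and 43.99, 36.5 and 28.9 CPM at 72 h (5.04 ± 0.43, adjusted p = 1.6e-05; 5.80 without 0 h replicate 3). The groups were separate, and for both genes replicate 1 was the highest and replicate 3 the lowest 72 h library. Among the other subunits, the GTPase Rac2 rose from 0.144 ± 0.18 to 8.86 ± 0.58 CPM (SD, n = 3; log2 change 5.87 ± 0.76, adjusted p = 0.000229).

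**Figure D3:**
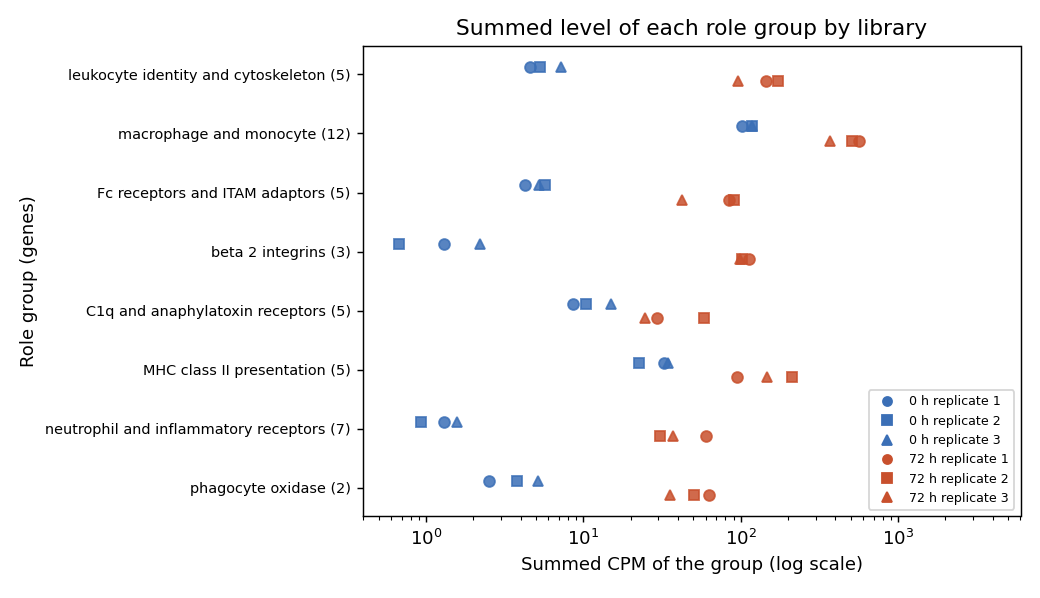
Summed CPM of the genes of each role in each library on a log scale, with 0 h libraries in blue and 72 h libraries in red and shapes for replicates. Every role sum is higher in all 72 h libraries; the gap is widest for beta-2 integrins (ratio 74.8) and narrowest for C1q and the anaphylatoxin receptors (ratio 3.30).

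Levels can be compared between genes per length, as mean CPM per kilobase of exon. At 0 h Lgals3 led with 34.5 ± 0.46 (SD, n = 3), followed by Cd74 at 8.15 ± 1.55 and Lyz2 at 6.36 ± 3.31, and the order of Cd74 and Lyz2 was within their spread. At 72 h Lyz2 led with 85.8 ± 41.1, followed by Lgals3 at 43.7 ± 18.3, Ctss at 41.7 ± 17.99, Cd74 at 28.3 ± 12.8 and Gpnmb at 27.0 ± 13.9, and neighbours in this order did not differ beyond their spread. Fcgr3 came next at 15.1 ± 5.22, with Itgb2 at 14.1 ± 5.02. In summed CPM, Gpnmb, Lgals3 and Lyz2 held 53.5% of the member total at 0 h and 34.4% at 72 h; without them the sum went from 79.4 ± 13.2 to 707 ± 152 CPM.

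The 72 h libraries did not scale up or down as one. Replicate 3 was the lowest for 31 of 44 members, but the highest was replicate 1 for 18, replicate 2 for 19 and replicate 3 for 7. Over the 44 genes the median ratio of the highest to the lowest 72 h library was 2.37. Replicate 1 was highest for 5 of 7 neutrophil and inflammatory receptor genes, and replicate 2 for 4 of 5 class II genes. The ratio of the neutrophil sum to the macrophage and monocyte sum was 0.107, 0.0600 and 0.1004 in replicates 1, 2 and 3, against 0.00787 to 0.0135 at 0 h. Lgals3 and Gpnmb, which epithelia and pigment cells, respectively, also express, weigh on this ratio. They gave 64.1 and 19.0 CPM of a mean macrophage and monocyte sum of 112 at 0 h, and 81.2 and 176 of 481 at 72 h. The class II sum was 0.662, 1.22 and 1.53 times the general leukocyte sum at 72 h and 4.25 to 7.06 times at 0 h, so class II was the larger of the pair only at 0 h and in 72 h replicates 2 and 3. These are descriptions of single pools and were not tested. At 0 h, replicate 3, the library with most hemoglobin counts, was highest for 19 of the 41 members with a count there.

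**Figure D4:**
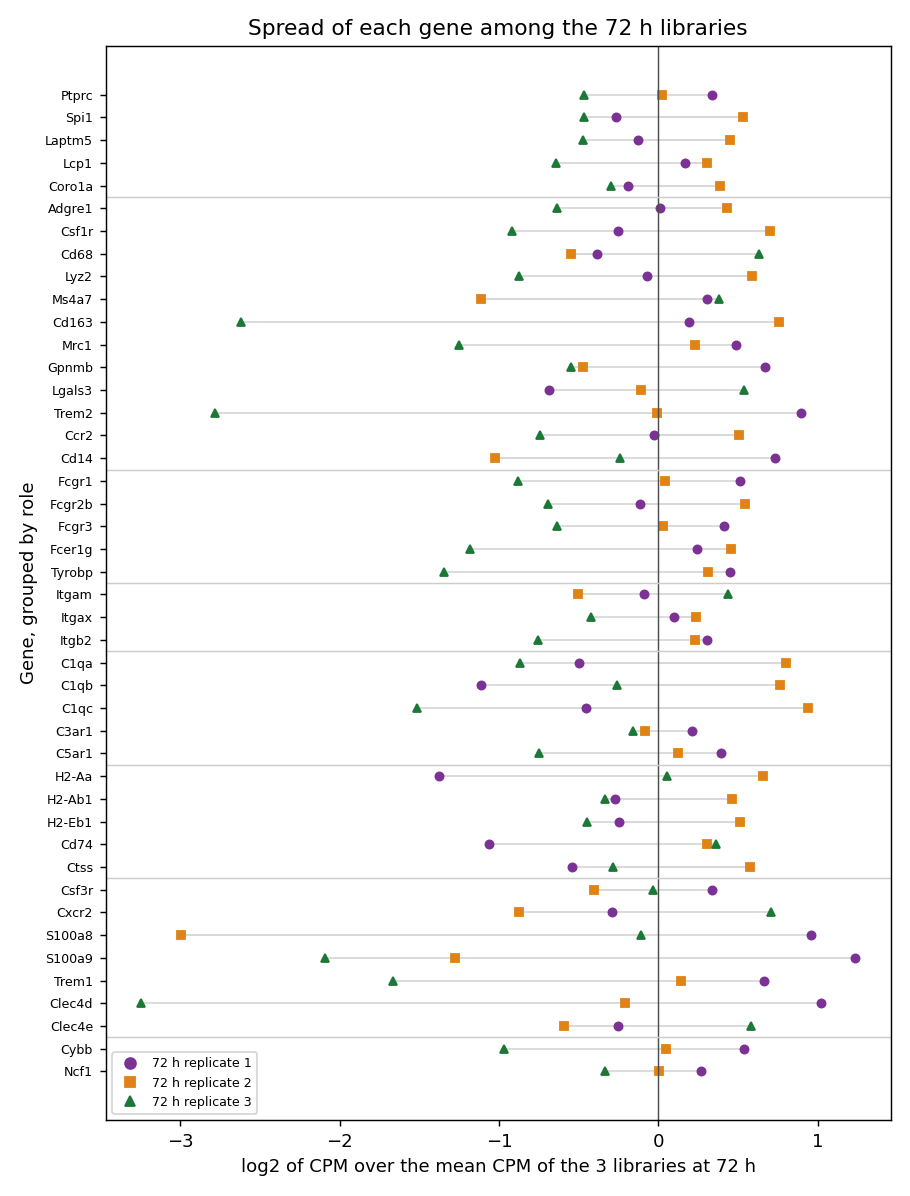
CPM of each gene in each 72 h library over the mean of the 3 libraries, on a log2 scale, with genes grouped by role and replicates marked by colour and shape. Replicate 3 lies furthest left for 31 of 44 genes, replicate 2 furthest right for most class II genes and replicate 1 for most neutrophil and inflammatory receptor genes.

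Ligands of these receptors rose in the same libraries. Of 13 listed, 8 were tested, 7 rose and 0 fell, beside 21.0% called higher and 17.5% lower among all tested genes. Among the 7, Cxcl1, Cxcl2, Cxcl3 and Cxcl5 had at most 4 pooled counts at 0 h. They passed the filter only with their 72 h counts, as did 1817 genes, of which 40.3% were called higher and 1 lower. Ccl2, the CCR2 ligand, went from 3.54 ± 1.23 to 35.5 ± 13.1 CPM (log2 change 3.32 ± 0.36, adjusted p = 7.1e-05). C3, the complement protein that gives rise to C3a, went from 7.38 ± 1.18 to 167 ± 116.5 CPM (log2 change 4.497 ± 0.80, adjusted p = 0.0119), but its call was lost without 0 h replicate 1, 2 or 3 (adjusted p = 0.0547, 0.0583 and 0.0603). Hc, the source of C5a, had 0 counts throughout. Adhesion ligands rose for 3 of 4 tested and fell for 1: Icam1, a ligand of beta-2 integrins, went from 1.62 ± 0.67 to 13.7 ± 2.45 CPM (log2 change 3.07 ± 0.42, adjusted p = 0.00031), whereas Jam3 fell from 74.0 ± 5.43 to 40.8 ± 6.44 CPM (log2 change −0.86 ± 0.15, adjusted p = 0.00129). Icam1 and Selplg, among the 3 adhesion ligands that rose, also passed the filter only with their 72 h counts. The endothelial selectin Sele had 0 counts in all libraries.

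Signalling partners moved with their receptors, and their counts of calls stand beside 21.0% higher and 17.5% lower among all tested genes. Some of them, such as Fgr and Btk with 5 and 1 pooled counts at 0 h, entered the test only through 72 h counts, and so did Syk, Vav1, Lcp2 and Ciita. Of all 1817 genes of that kind 40.3% were called higher and 1 lower. Of 12 ITAM and Src-family signalling genes, all tested, 10 rose and 0 fell; the kinase gene Lyn went from 2.31 ± 1.02 to 50.5 ± 14.1 CPM (log2 change 4.44 ± 0.36, adjusted p = 1.5e-05). Other Fc and pattern receptors rose for 5 of 7 tested and fell for 1. All 5 that rose (Pirb, Cd300lf, Cd33, Clec7a and Clec4n) entered the test only through 72 h counts. Clec7a, the beta-glucan receptor dectin 1, went from 0.775 ± 0.25 to 18.4 ± 5.83 CPM (log2 change 4.55 ± 0.41, adjusted p = 2.3e-05), and Sirpa, the receptor for CD47 that neurons and other cells also express, from 90.8 ± 4.70 to 60.9 ± 13.2 CPM (log2 change −0.58 ± 0.16, adjusted p = 0.0158; 0.0609 and 0.06 when 0 h replicate 1 or 3 was left out). Of 8 class II loading genes 3 were tested and 1 rose: Ciita, the class II transactivator, went from 0.135 ± 0.12 to 4.81 ± 3.55 CPM (log2 change 5.01 ± 0.97, adjusted p = 0.00264), highest in 72 h replicate 2 at 8.78 CPM, the library where most class II members were highest. H2-Oa had 0 counts throughout.

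Markers outside the 44 genes were counted by cell type, with no test between types. The counts of calls stand beside 21.0% higher and 17.5% lower among all tested genes. Other macrophage markers rose for 6 of 10 tested and fell for 0; Mpeg1, the pore protein perforin 2, went from 2.71 ± 0.58 to 27.0 ± 7.01 CPM (log2 change 3.32 ± 0.31, adjusted p = 2.8e-05), and Mertk, the efferocytosis receptor, from 16.3 ± 1.40 to 27.6 ± 4.35 CPM (log2 change 0.76 ± 0.20, adjusted p = 0.0119; adjusted p = 0.0595 without 0 h replicate 3). Msr1, Cd53, Cd52 and Pf4, among the 6, passed the filter only with their 72 h counts. So did 1817 genes, of which 40.3% were called higher and 1 lower. Marco and Vsig4, markers of particular resident macrophages, had 0 counts throughout. Inflammatory monocyte markers rose for 4 of 5 tested (Fn1, Thbs1, Arg1 and F13a1), of which Arg1 passed the filter only with its 72 h counts. Most of their 72 h sum of 3964 to 4483 CPM was fibronectin (Fn1), which many stromal cells make as well, at 3172 ± 399 CPM (SD, n = 3). The defining marker Ly6c2 had 0 counts, and Vcan, the proteoglycan versican, was not called, with 259.7 ± 41.2 CPM in the 0 h libraries and 178 ± 92.8 CPM in those of 72 h. Microglia markers rose for 0 of 2 tested, and Sall1, a zinc-finger factor gene, fell from 120 ± 4.05 to 48.2 ± 13.1 CPM (log2 change −1.32 ± 0.18, adjusted p = 0.000377).

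Mature neutrophil markers rose for 5 of 6 tested and fell for 0, beside 21.0% higher and 17.5% lower among all tested genes. Il1r2, Mmp8, Mmp9 and Cd177, among these 5, had at most 15 pooled counts at 0 h. They passed the filter only with their 72 h counts, as did 1817 genes, of which 40.3% were called higher and 1 lower. Mmp9, gelatinase B, went from 0.399 ± 0.54 to 49.7 ± 11.2 CPM (log2 change 6.87 ± 0.64, adjusted p = 0.000153). The defining surface marker Ly6g had 0 counts in every library. Of 9 granule genes of neutrophil precursors, 5 had 0 counts throughout (Elane, Mpo, Ctsg, Camp and Ngp). In 72 h replicate 3, the library with the keratins, Ltf gave 135 of the 182 CPM of this list. In 72 h replicates 1 and 2 Ltf was at 3.59 and 3.70 CPM, and it was not called (adjusted p = 0.0951). Without 72 h replicate 3 it was called higher (log2 change 3.23, adjusted p = 0.0178). The same held without robust estimation (adjusted p = 0.0136) and with the replicate block (adjusted p = 0.000225). Lcn2, lipocalin 2, which epithelia also make, rose in the fit (log2 change 5.77 ± 1.08, adjusted p = 0.0156) but lost its call without 0 h replicate 1, 2 or 3 (adjusted p = 0.073, 0.065 and 0.0731). Chil1, a chitinase-like protein, was not called (log2 change 3.73 ± 1.35, adjusted p = 0.102). It was called higher with DESeq2 (adjusted p = 0.00312), without robust estimation (0.0143) and without 72 h replicate 3 (0.0117). Dendritic cell markers rose for 1 of 3 tested, Irf8, from 4.33 ± 1.78 to 12.5 ± 1.84 CPM (log2 change 1.53 ± 0.39, adjusted p = 0.0109). Lymphocyte markers summed to 0.339 to 0.789 CPM at 0 h and 3.12 to 5.50 CPM at 72 h, with Cd3d, Ms4a1 and Cd79a at 0. The only one tested, the interleukin 7 receptor gene Il7r, rose from 0 counts by at least 24.1-fold (adjusted p = 0.00359). In the mast cell and eosinophil list 6 of 8 genes had 0 counts, and Siglecf, an eosinophil and macrophage lectin, rose from 0 counts by at least 24.1-fold (adjusted p = 0.00301).

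Markers of other cells moved as well. Fibroblast markers summed to 207 to 272 CPM at 0 h and to 604 to 1140 CPM at 72 h, with 4 of 5 tested called higher, such as Col1a1, and Pdgfra lower. Dcn, Lum and Col3a1, among the 4, passed the filter only with their 72 h counts. Of all 1817 genes of that kind 40.3% were called higher and 1 lower. Among all tested genes 21.0% were called higher and 17.5% lower. Endothelial markers were called higher for 0 of 2 tested and summed to at most 17.7 CPM. Erythrocyte and platelet markers summed to 6.43 to 24.1 CPM at 0 h and 8.93 to 21.8 CPM at 72 h. Their part in the myeloid values was not tested.

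**Figure D5:**
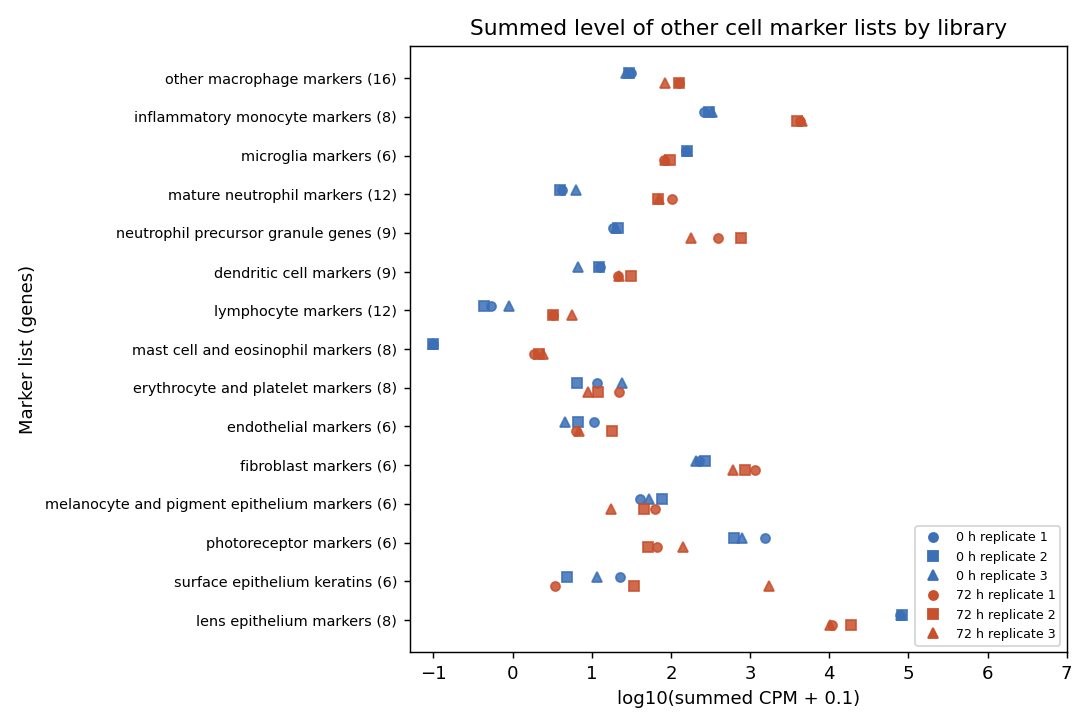
Summed level of 15 lists of cell markers in each library, as log10 of summed CPM plus 0.1, with the number of genes in each list in brackets. In all 72 h libraries 8 lists are higher than at 0 h (other macrophage, inflammatory monocyte, mature neutrophil, neutrophil precursor, dendritic, lymphocyte, mast cell and eosinophil, and fibroblast). Microglia, photoreceptor and lens epithelium lists are lower, and keratins stand out in 72 h replicate 3 at 1752 CPM. In that replicate Ltf gave 135 of the 182 CPM of the neutrophil precursor list.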

How the data were processed

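RNA sequencing read counts per gene were used from 6 libraries of mouse lens capsules, 3 at 0 h and 3 at 72 h after surgery. The authors deposited raw counts, whole numbers per Ensembl gene, one table per library, with no normalization. Per the labels' protocols, a Qiagen RNeasy kit gave total RNA and a Takara SMARTer Stranded Pico kit the libraries. The submitters' processing notes name HISAT2, HTSeq, edgeR and the build GRCm39, without versions; annotation release and strand setting are not given in the sources used here. Counting could therefore be affected where exons overlap other genes, as in the GENCODE M21 annotation they do for 7 members (Lcp1, Coro1a, Csf1r, Fcgr2b, Itgam, Cd74 and Ncf1). Reads on 5 lines assigned to no gene, 41.9% to 45.2% of reads at 0 h and 48.0% to 51.7% at 72 h, were left out. Gene totals of 8453450 to 12432688 per library set the precision of low counts.

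Symbols came from GENCODE M21, which named 51947 of the 56940 identifiers; it belongs to another build, so only names and exon lengths were taken from it. Genes were filtered with filterByExpr (minimum count 10, minimum total 15), normalised by TMM and tested with edgeR 4.0.16 in R 4.3.3 (glmQLFit, robust, glmQLFTest), two-sided, with time as the only term, a prior count of 0.125, Benjamini-Hochberg adjustment across 15407 genes and calls below 0.05. Standard errors were derived from the change and the F statistic. CPM are counts scaled by edgeR to TMM library sizes. A gene with 0 counts at 0 h has its fold bounded against 3 pooled counts, and one with 1 to 3 counts has the pooled ratio with an exact 95% interval. Both cover counting error only, since reads from PCR copies are not separate molecules. The fit was tested on simulated data.

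Alternatives were other normalizations and filters, DESeq2 1.42.0, limma 3.58.1 (voom), a replicate block and leaving out each library. A filter of at least 3 CPM in 3 libraries and a sum without 2 members were added after the data were seen, the former because 1 CPM kept the same genes as the filter used. The 3 libraries of a group differed by more than sampling noise (chi-square per degree of freedom at least 7.08). Same-numbered libraries did not deviate together (correlations −0.04, 0.06 and −0.01), so the numbers were not taken as pairs. All 44 members are accounted for. Of each other list the text names the called gene of smallest p in each direction, the gene of highest mean CPM and defining genes at 0 counts. It also names a few, chosen after their values were seen, that bear on a member or on how the count or sum of a list reads. Some listed genes are not reported here. The members, roles and lists were chosen with earlier results of these data known.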

Additional observations from a re-analysis of the deposited data

How the results depend on the processing

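Depth limits the genes near the filter: 5 members had too few counts to test, and 3 members had 0 counts at 0 h. Over 16 alternatives, 593 of 617 values of a member's change kept their direction and their side of the threshold, 14 lost the call, 7 gained it and 3 reversed. Of the 35 members called higher, 29 kept the call in every alternative with a value and 6 lost it in at least 1 (Lyz2, Gpnmb, Fcgr1, C1qa, C5ar1 and H2-Eb1). Of 39 tested members, 35 were called higher under 6 alternatives that changed the normalization, tool, robust step or the 1 CPM filter, and 36 with DESeq2. The number was 29 of 32 tested at 3 CPM and 40 of 44 with no filter. When 1 library was left out it was 33 to 39, with 39 to 44 tested. In all of these alternatives 0 members were called lower. C1qb passed with DESeq2 (adjusted p = 0.022), at 3 CPM (0.0495) and with no filter (0.0107). Over all genes, leaving out 1 library gave 2511 to 3646 called higher and 1877 to 3265 called lower.

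With the replicate block, 32 members and 2921 genes were called higher and 2507 genes lower; Lyz2 (adjusted p = 0.052), Gpnmb (0.0557) and C5ar1 (0.0568) lost the call. The block changed no other call among members.

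Directions reversed only when 1 library was left out, for members that were not called: the log2 change ran from −0.011 to 1.11 for Cd163, from −0.015 to 0.58 for Lgals3 and from −0.031 to 1.27 for C1qc. The summed level of the members was 216 CPM at 0 h and 1359 CPM at 72 h with library sizes that leave out crystallin and mitochondrially encoded genes, 79.4 and 707 CPM without Gpnmb, Lgals3 and Lyz2, and 87.8 and 820 CPM without Gpnmb and Lgals3. These follow from the smaller library sizes and the fewer genes summed.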
